A study of Mus musculus with 18 samples.

Results

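Igf2, Igf2r, Grb10, Plagl1, Peg3 and Mest, 6 imprinted genes that regulate growth, were followed in mouse heart at postnatal day 8 (P8) and day 30 (P30). They were chosen by name, with earlier results of these data known. The choice was made through the gene symbols of the authors' deposited gene lists, from 2562 genes named in this way in a value table of 4704 probes. Each of the 6 genes had 1 probe, a probe set for 1 transcript cluster on the Clariom S mouse array. All 6 had a value in every sample. The study compares whole hearts of mice kept in normal air (normoxia) with those of mice in hypoxia, given as 11% in the labels, and its title concerns delayed maturation of the heart under low oxygen. There were 4 normoxic P8 samples (numbers 13, 22, 23 and 24), 5 hypoxic P8 samples (4 to 8), 4 normoxic P30 samples (2 to 5) and 5 hypoxic P30 samples (1 to 5). The labels used here give no strain or genotype, nor whether hypoxia lasted to P30. Separate animals are not stated either. A p-value therefore weighs a difference against the spread between samples, which may not be the spread between animals.

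An imprinted gene is transcribed mainly from the allele of a single parent. Igf2, Plagl1, Peg3 and Mest are expressed from the paternal allele in the mouse, and Igf2r and Grb10 from the maternal allele in most mouse tissues. The set is known as part of a network of imprinted genes that is highly active in the growing fetus and declines in many organs after birth. Igf2 encodes a growth factor that acts through the insulin-like growth factor 1 receptor and the insulin receptor. Igf2r encodes a receptor that takes the factor up for breakdown in lysosomes, and Grb10 an adaptor protein that restrains signalling from both of those signalling receptors. Plagl1, also called Zac1, and Peg3 encode zinc finger transcription factors, and Mest a protein of the alpha/beta hydrolase family. The array does not tell the parental alleles apart, and in a whole heart more transcript per cell and more cells that hold it cannot be told apart either.

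Values are log2 signals, so a difference of 1 doubles the signal. They differ between probes in ways that say nothing of abundance, and levels are compared only within a gene. Array medians were 7.38 to 8.07. The value table holds only part of the array. How its probes were picked is unknown here, and all shares over its probes depend on it. The 4 group means of every probe spanned 0.46 or more. Names came only from the deposited lists, which hold probes up to an unadjusted p of 0.05 for hypoxia at either age. Of the 6 genes, 5 were named through the P8 list and Mest through the P30 list. Counts of these genes that passed a test of hypoxia at the age of their list are therefore favoured by how they came to be named. The cardiomyocyte markers with a named value, Myh7, Ryr2 and Ckmt2 (3 of 12 listed), had a mean log2 signal of 14.01 to 16.48 in all samples.

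**Figure D1:**
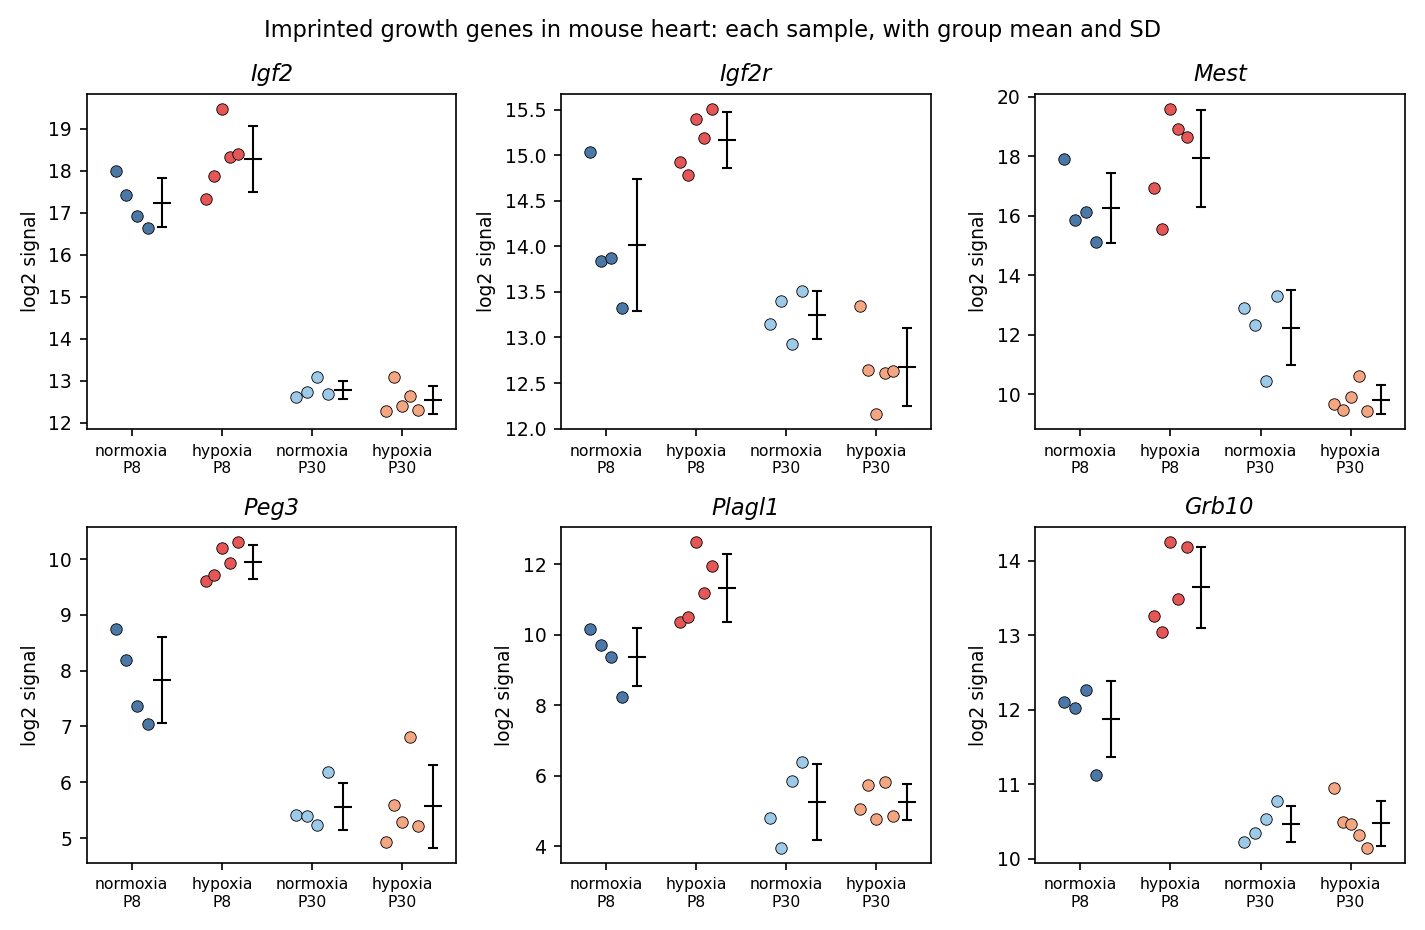
Log2 signal of each gene in each of the 18 samples, by group, with the group mean and SD beside the points (4 normoxic and 5 hypoxic samples at each age). All 6 genes have their highest group mean in hypoxic P8 hearts, and both P30 groups lie at the bottom.

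At P8 the transcripts of all 6 genes were on average higher in hypoxic than in normoxic hearts, and Grb10, Peg3, Plagl1 and Igf2r passed the test. The median log2 difference of the 6 was 1.72, against 0.18 over all probes of the table and 0.65 over the named probes. The test was limma's moderated test over all 18 samples, with Benjamini-Hochberg adjustment to about 22199 tests, a number inferred from the deposited q-values, and a threshold of 0.05. The 4 of 6 genes that rose stand beside 15.2% of all probes and 26.8% of the named probes that rose in this comparison. In 3 of the 6, Peg3, Plagl1 and Grb10, the lowest hypoxic sample exceeded the highest normoxic one, which held for 16.4% of all probes and 28.3% of the named ones.

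Among the genes of the ligand and its receptors, Igf2 had log2 signals of 17.98, 17.41, 16.91 and 16.64 in normoxic samples 13, 22, 23 and 24. In hypoxic samples 4 to 8 it had 17.32, 17.88, 19.47, 18.33 and 18.39. Hypoxic samples 4 and 5 lay within the normoxic range and the other 3 above it. The log2 difference of 1.04 ± 0.34 (SE) did not pass (limma adjusted p = 0.101), with a 95% interval of 0.33 to 1.76. The value of sample 6 is close to the highest value in the table, 19.93, and an array compresses differences near its upper end.

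Igf2r stood at 15.04, 13.84, 13.87 and 13.32 in the normoxic samples and at 14.93, 14.78, 15.40, 15.19 and 15.51 in the hypoxic ones. Normoxic sample 13 reached into the hypoxic range, while the other 3 normoxic samples lay below it. Igf2r rose 2.21-fold, or 1.14 ± 0.30 (SE) as a log2 difference (limma adjusted p = 0.0305). Grb10, the signalling adaptor, had 12.10, 12.03, 12.26 and 11.13 in normoxia and 13.26, 13.05, 14.25, 13.49 and 14.18 in hypoxia. The groups did not overlap. Its mean was 11.88 ± 0.51 (SD, n = 4) in normoxia and 13.65 ± 0.54 (SD, n = 5) in hypoxia. Grb10 thus rose 3.40-fold (limma adjusted p = 0.000982).

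Both transcription factor genes rose. Peg3 had 8.74, 8.19, 7.36 and 7.05 in normoxia and 9.61, 9.71, 10.19, 9.93 and 10.30 in hypoxia. Plagl1 had 10.16, 9.71, 9.38 and 8.24 in normoxia and 10.36, 10.50, 12.63, 11.19 and 11.96 in hypoxia. For Peg3 the hypoxic samples lay close together (SD 0.30) and the normoxic ones farther apart (SD 0.77), whereas for Plagl1 hypoxic samples 4 and 5 lay only just above the highest normoxic sample. Peg3 rose 4.33-fold, a log2 difference of 2.11 ± 0.36 (SE), with a limma adjusted p of 0.00189. Plagl1 rose 3.88-fold (1.96 ± 0.51, SE) with a limma adjusted p of 0.0298. Mest had the widest spread. It stood at 17.90, 15.87, 16.13 and 15.13 in normoxia and at 16.92, 15.57, 19.60, 18.91 and 18.64 in hypoxia. Hypoxic samples 4 and 5 fell within the normoxic range. Normoxic samples 13, 22 and 23 fell within the hypoxic range, and only normoxic sample 24 lay below it. Its log2 difference of 1.67 ± 0.70 (SE) did not pass (limma adjusted p = 0.287).

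The calls were not equally steady. Those of Grb10 and Peg3 held under all 25 alternatives, with a highest adjusted p of 0.0180 and 0.0110. Those of Igf2r and Plagl1 each ended under 9 alternatives: with quantile normalization, with arrays centred on their medians, with only the P8 groups in the fit, and with any of normoxic samples 22 to 24 or hypoxic samples 6 to 8 left out. Under these the log2 difference ran from 0.78 to 1.14 for Igf2r and from 1.58 to 2.07 for Plagl1. With normoxic sample 13 or hypoxic sample 4 left out Igf2 passed, at 1.29 and 1.28, and with hypoxic sample 5 left out Mest passed, at 2.26. The medians of the hypoxic P8 arrays were on average 0.37 above those of the normoxic ones, and centring takes this amount from each difference, which stayed above 0 for all 6 genes (0.68 to 1.75). In the authors' deposited table the q-value was 0.0045 for Grb10, 0.0113 for Peg3, 0.0555 for Igf2r, 0.0787 for Plagl1 and 0.1288 for Igf2.

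**Figure D2:**
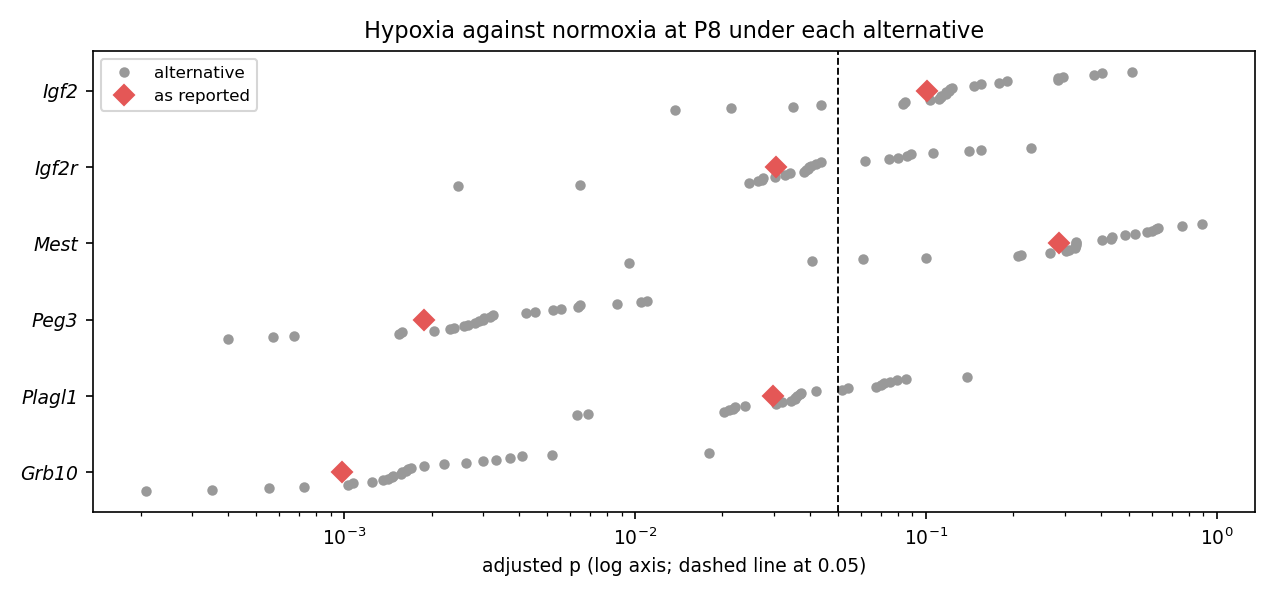
Adjusted p (log axis) of hypoxia against normoxia at P8 for each gene, as reported (diamond) and under 25 alternatives (grey points), with the threshold as a dashed line. Grb10 and Peg3 stay left of the line throughout, Igf2r and Plagl1 lie on both sides, and Igf2 and Mest lie mostly to its right.

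Within each P8 group the 6 genes tended to be high or low in the same samples. Normoxic sample 24 was the lowest of its group in all 6 genes, and normoxic sample 13 the highest in 5. Over the 6 genes it lay on average 0.89 above the group means on the log2 scale, and sample 24 lay 0.85 below them. Of the hypoxic samples, 6 and 8 were above the group mean in all 6 genes and 4 and 5 below it in all 6, with sample 6 the highest in 4 genes. Hypoxic samples 4 and 5 nevertheless lay 0.97 and 0.82 above the normoxic mean over the 6 genes, against 1.74 to 2.49 for samples 6 to 8. Normoxic sample 13, at 0.89 above that mean, lay between samples 4 and 5. The array medians were 7.57, 7.69, 7.65 and 7.49 in normoxic samples 13, 22, 23 and 24. They were 7.96, 7.87, 8.07, 8.00 and 7.94 in hypoxic samples 4 to 8. Whether other probes followed the same samples as closely was not tested.

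Marker lists of other cells and states also differed between the P8 samples, some along with the 6 genes and some against them. Genes of dividing cells (15 of 20 with values) had a mean log2 signal of 8.13 in normoxic sample 13, 6.25 to 6.51 in the other normoxic samples and 8.23 to 9.18 in hypoxic samples. Interferon-induced genes (10 of 12) stood at 12.87 and 14.17 in hypoxic samples 4 and 5, at 10.27 in sample 8, at 7.09 and 6.75 in samples 6 and 7, and at 4.69 to 5.48 in normoxia. Erythroid markers (6 of 14) were at 7.79 to 8.93 in hypoxia and 5.33 to 7.59 in normoxia, with sample 24, lowest in the 6 genes, the highest of the normoxic ones and sample 13 the lowest at 5.33. Macrophage markers (7 of 11) were at 6.61 to 7.76 and 5.08 to 6.00, again lowest in sample 13, and endothelial ones (Flt1 and Eng, 2 of 10) at 12.56 to 13.63 and 11.32 to 11.68. Fibroblast and mural markers (5 of 10) went the other way, at 13.36 to 13.67 in hypoxia and 14.46 to 15.32 in normoxia, and so did the mean of the cardiomyocyte markers, at 14.01 to 15.16 and 15.24 to 15.61. Of its members, Ryr2 (-1.62) and Ckmt2 (-2.08) fell, and Myh7 (0.78, not passing) differed the other way. The epicardial marker Tbx18 (1 of 5) was at 5.93 to 6.60 and 4.57 to 5.96. The part of these shifts in the results of the 6 genes was not tested. Without hypoxic samples 4 and 5, all 6 genes passed, at log2 differences of 1.35 (Igf2r) to 2.79 (Mest), in a fit in which 19% of all probes passed in either direction. Since these samples were below the group mean in all 6 genes, leaving them out raises each difference by construction.

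**Figure D3:**
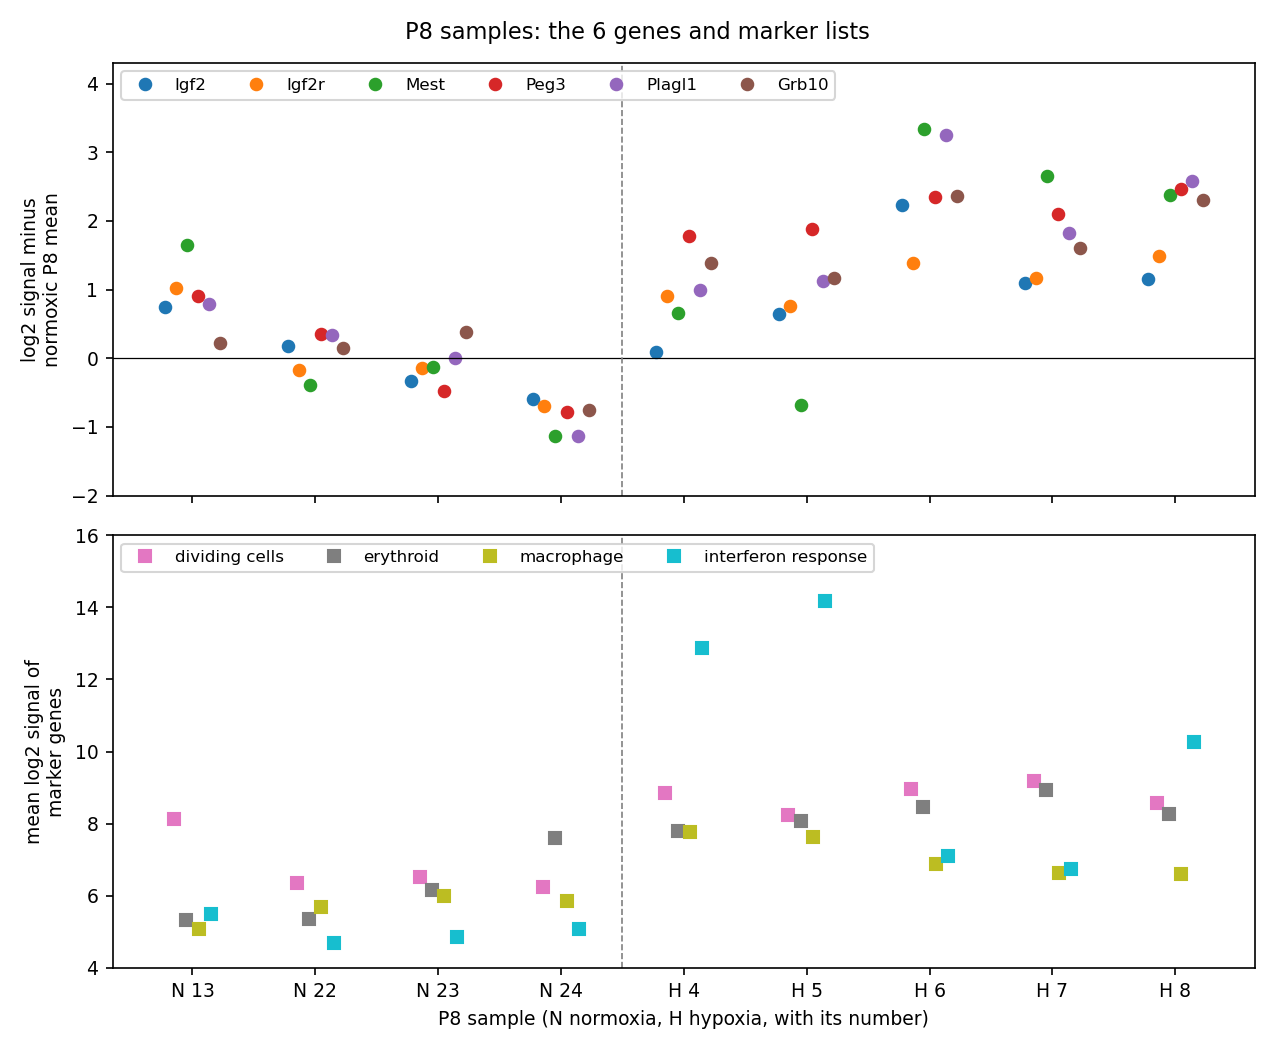
P8 samples only. Upper panel, log2 signal of the 6 genes minus the normoxic P8 mean of each gene; lower panel, mean log2 signal of 4 marker lists in the same samples (N normoxia, H hypoxia). Normoxic sample 13 is high both in the 6 genes and in genes of dividing cells, and hypoxic samples 4 and 5, lowest of the hypoxic samples in the 6 genes, are highest in interferon-induced genes.

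Promoter sequences are shown for the 4 genes that passed the test at P8. Plagl1 is known to bind the element GGGGCCCC, and the hypoxia-inducible factor binds elements with the core ACGTG or GCGTG. The windows are the 250 bases before an annotated transcript start in RefSeq on GRCm38.p6, on the strand of the gene, and matches to the 3 motifs on either strand are in capitals.
Peg3, chr7:6730420-6730669, minus strand: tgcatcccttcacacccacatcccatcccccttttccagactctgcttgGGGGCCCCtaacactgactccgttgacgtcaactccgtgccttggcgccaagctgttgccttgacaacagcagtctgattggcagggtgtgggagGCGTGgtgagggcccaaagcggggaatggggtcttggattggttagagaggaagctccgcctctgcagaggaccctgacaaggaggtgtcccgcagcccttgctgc
Plagl1, chr10:13090582-13090831, plus strand: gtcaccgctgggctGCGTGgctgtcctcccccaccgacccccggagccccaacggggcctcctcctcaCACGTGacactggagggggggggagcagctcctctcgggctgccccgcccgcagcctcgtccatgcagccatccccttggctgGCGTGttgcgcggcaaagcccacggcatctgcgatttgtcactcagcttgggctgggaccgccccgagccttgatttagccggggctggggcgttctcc
Igf2r, chr17:12769707-12769956, minus strand: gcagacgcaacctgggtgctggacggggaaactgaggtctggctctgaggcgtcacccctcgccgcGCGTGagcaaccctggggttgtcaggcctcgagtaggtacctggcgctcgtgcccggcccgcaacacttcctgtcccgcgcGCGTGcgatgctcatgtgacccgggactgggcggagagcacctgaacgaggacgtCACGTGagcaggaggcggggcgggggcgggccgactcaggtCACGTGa
Grb10, chr11:12037421-12037670, minus strand: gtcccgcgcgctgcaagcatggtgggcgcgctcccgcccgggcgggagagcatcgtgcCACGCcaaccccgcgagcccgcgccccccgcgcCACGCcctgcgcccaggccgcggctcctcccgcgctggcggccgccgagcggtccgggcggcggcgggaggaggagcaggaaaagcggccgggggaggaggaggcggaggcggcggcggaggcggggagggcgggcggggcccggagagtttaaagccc
The Peg3 window holds GGGGCCCC from position -201, where -1 is the last base before the transcript start, a motif found in 1 of the 12 windows of the 6 genes and in 0.889% of 32851 windows of all genes. The Plagl1 window holds 1 CACGTG and the Igf2r window 2, each of which contains ACGTG on both strands. ACGTG or GCGTG is in 5 of the 12 windows, among them the 4 shown, and in 38.6% of all windows. A second Grb10 window, chr11:12027972-12028221, holds none of the 3 motifs. Igf2 has 4 annotated windows and Mest 3, of which only 1, of Igf2, holds a match. CpG dinucleotides number 40 in the Grb10 window shown and 8 in the other, 27 in that of Igf2r, 19 in that of Plagl1 and 8 in that of Peg3, with a median of 6 over all windows. These matches describe the letters and not binding, and neither methylation nor factor binding was measured.

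At P30 none of the 6 genes passed in hypoxia against normoxia, by limma at an adjusted p of 0.05. The share over all probes was 0%. At an unadjusted p under 0.05 there was 1 of the 6, Mest, and 656 of the 4704 probes. Mest stood at 12.90, 12.32, 10.46 and 13.30 in normoxic samples 2 to 5 and at 9.68, 9.47, 9.90, 10.63 and 9.44 in hypoxic samples 1 to 5. Normoxic sample 4 lay within the hypoxic range and the other 3 normoxic samples above it. The log2 difference was -2.42 ± 0.70 (SE) with a 95% interval of -3.88 to -0.96 (limma adjusted p = 0.707). The authors' deposited table lists Mest as 8.76-fold lower with a p of 0.0101 and a q of 0.614, against 5.36-fold lower here. Its log2 averages for Mest, 12.78 in normoxia and 9.65 in hypoxia, differ from the means of the samples, 12.25 and 9.82.

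Grb10, Peg3 and Plagl1 had nearly equal means at P30, with log2 differences of 0.00, 0.01 and -0.01. The 95% intervals ran from -0.58 to 0.59, from -0.75 to 0.77 and from -1.06 to 1.05 for Grb10, Peg3 and Plagl1. The P8 difference of Grb10 lies outside its P30 interval. Peg3 and Plagl1 were dim at P30, near the 25th percentile of all values in the table (5.48), where a signal understates differences, so their intervals set no such bound. Igf2r was at 13.15, 13.40, 12.93 and 13.51 in normoxia and at 13.34, 12.64, 12.16, 12.61 and 12.63 in hypoxia. All hypoxic samples but sample 1 lay below the normoxic ones, and the difference of -0.57 ± 0.30 (SE) did not pass. Igf2 lay at 12.61 to 13.09 in normoxia and at 12.27 to 13.08 in hypoxia, with a difference of -0.24 ± 0.34 (SE).

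**Figure D4:**
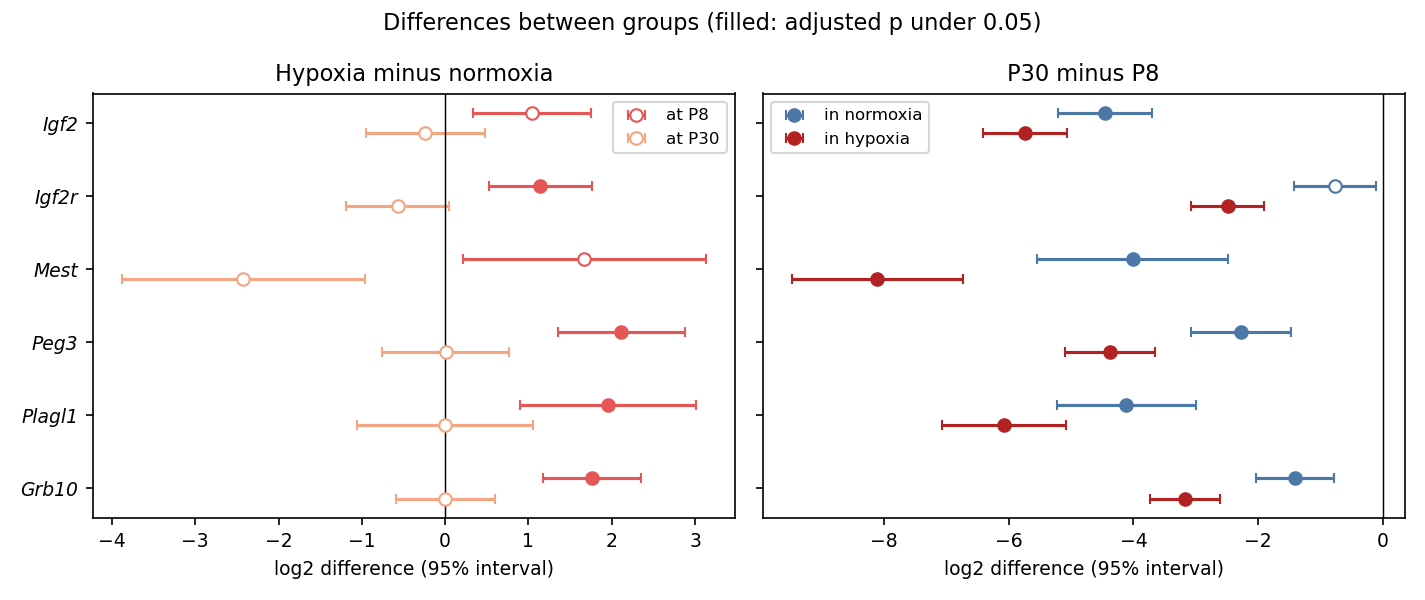
Log2 differences of the 6 genes with 95% intervals from limma, hypoxia minus normoxia at each age (left) and P30 minus P8 in each oxygen group (right); filled points have an adjusted p under 0.05. Hypoxia differences lie above 0 at P8. At P30 the interval of Mest lies below 0, and those of the other genes include 0, with Igf2r at -0.57. The fall with age is larger in hypoxia for every gene, which the way the genes were named favours.

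The transcripts fell with age in both oxygen groups. In normoxia 5 of the 6 genes were lower at P30, all but Igf2r, in a comparison in which 16.3% of all probes were lower, and the same 5 had groups that did not overlap (21.3% of all probes). The genes were chosen with earlier results of these data known, so this count is not free of that choice. The growth factor gene Igf2 had means of 17.24 ± 0.59 (SD, n = 4) at P8 and 12.78 ± 0.21 (SD, n = 4) at P30. This is a 21.9-fold fall (limma adjusted p = 2.26e-07). Plagl1 fell 17.3-fold, from 9.37 ± 0.82 to 5.26 ± 1.09 (adjusted p = 5.55e-05), and Mest 16.1-fold, from 16.26 ± 1.17 to 12.25 ± 1.26 (0.00155). Peg3 fell 4.83-fold and Grb10 2.66-fold (adjusted p = 0.000782 and 0.00476). Igf2r differed by -0.77 ± 0.31 (SE) and did not pass (adjusted p = 0.202). The means of Plagl1 and Peg3 at P30 lie at the dim end described above, where a fall is understated.

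In hypoxia all 6 genes fell, and no P30 sample reached the range of the P8 samples in any of them. Over all probes, 43.9% were lower and 35.3% were lower without overlap. Mest had a mean of 17.93 ± 1.65 (SD, n = 5) at P8 and of 9.82 ± 0.49 (SD, n = 5) at P30, and fell by 8.10 ± 0.66 (SE) in log2 units. Plagl1 fell 67.4-fold, Igf2 53.4-fold, Peg3 20.8-fold, Grb10 9.01-fold and Igf2r 5.60-fold, with limma adjusted p-values from 4.46e-10 (Igf2) to 2.18e-06 (Igf2r). The median log2 difference of the 6 genes was -5.06 in hypoxia and -3.14 in normoxia. Over all probes it was -0.50 and -0.11, and over the named probes -0.59 and -0.10. Mest was named through a contrast that holds the hypoxic P30 samples, and the other genes through one that holds the hypoxic P8 samples. The count and size of the fall in hypoxia are therefore favoured by the naming. The 5 calls in normoxia held under each of 25 alternatives and the 6 in hypoxia under each of 26.

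The order of the 4 group means was the same in Igf2, Igf2r and Mest, from hypoxic P8 over normoxic P8 and normoxic P30 to hypoxic P30. In Peg3, Plagl1 and Grb10 both P30 groups were level. By the tests above, the P8 groups differed in Grb10, Peg3, Plagl1 and Igf2r, the normoxic groups in all but Igf2r, and the P30 groups in no gene. In Igf2r the P8 groups overlapped, and its call and that of Plagl1 at P8 were not steady, as given above. Set against the normoxic P8 mean on the linear scale, Grb10 stood at 340% in hypoxic P8 hearts and at 37.6% and 37.7% in normoxic and hypoxic P30 hearts. Peg3 stood at 433%, 20.7% and 20.8%, and Igf2 at 206%, 4.56% and 3.86%. The hypoxia difference at P8 and the age difference in normoxia share the normoxic P8 samples, so their values are given only side by side: 1.77 and -1.41 for Grb10, 2.11 and -2.27 for Peg3, 1.96 and -4.11 for Plagl1, and 1.14 and -0.77 for Igf2r.

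The hypoxia effect at P30 minus that at P8 was below 0 for all 6 genes. It is also the age difference in hypoxia minus that in normoxia. Its median was -1.86, against -0.31 over all probes and -0.73 over the named probes. Mest (-4.09 ± 0.99, SE, limma adjusted p = 0.0479) and Grb10 (-1.76 ± 0.40, adjusted p = 0.0340) passed, where 4.34% of all probes passed with this sign. The difference contains the contrast through which each gene was named, P30 for Mest and P8 for the others, so this count is favoured by the naming as well. Igf2r (-1.72 ± 0.42) and Peg3 (-2.11 ± 0.52) missed the threshold, each with an adjusted p of 0.0507, and Igf2 (-1.28 ± 0.48) and Plagl1 (-1.96 ± 0.72) did not pass. The calls rested on small margins: over 24 alternatives Mest kept its call in 7 and Grb10 in 11, both losing it with quantile normalization and with centred arrays. The call of Mest ended without normoxic P8 samples 22, 23 or 24, hypoxic P8 samples 6, 7 or 8, normoxic P30 samples 2, 3 or 5, or hypoxic P30 samples 1, 2, 3 or 5. That of Grb10 ended without normoxic P8 samples 22 or 24, hypoxic P8 samples 6 or 8, normoxic P30 samples 3, 4 or 5, or hypoxic P30 samples 2 to 5. Without normoxic P8 sample 13 or hypoxic P8 sample 5, 4 of the 6 genes passed, and without any other single sample 0 to 2 did.

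Other genes of the insulin-like growth factor system went both ways in hypoxia at P8. Of 30 listed, 9 had values per sample, and 2 rose and 2 fell, where 15.2% of all probes rose and 5.57% fell. Of the named probes, 26.8% rose. The median log2 difference of the 9 was -0.55, against 0.18 over all probes and 0.65 over the named probes. Igf2bp2, whose protein binds Igf2 mRNA, had 5.92 ± 0.28 (SD, n = 4) in normoxia and 7.77 ± 0.55 (SD, n = 5) in hypoxia, a rise of 3.61-fold with a limma adjusted p of 0.000710. Mtor, the growth-controlling kinase, named after its values were seen, rose by 1.06 ± 0.25 (SE). Htra1, a protease that cuts binding proteins of these factors, fell by 1.51 ± 0.21 (SE, limma adjusted p = 0.000271), and Grb14, the close relative of Grb10 that binds the insulin receptor, fell by 1.89 ± 0.47 (adjusted p = 0.0230). Grb14 thus lay at 11.13 ± 0.09 in normoxia and 9.24 ± 1.01 in hypoxia, opposite in direction to Grb10.

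With age, 3 of these 9 genes fell and 1 rose in normoxia, and 3 fell and 4 rose in hypoxia. Over all probes 16.3% fell and 18.3% rose in normoxia, and 43.9% fell and 26.3% rose in hypoxia. Igf2bp3, a relative of Igf2bp2 known from fetal tissue, fell by 1.65 ± 0.31 (SE) in normoxia and by 2.02 ± 0.28 in hypoxia, and the kinase gene Akt1 fell by 1.06 ± 0.25 and 1.28 ± 0.22. Igf2bp2 fell by 2.87 ± 0.27 in hypoxia, and its -0.97 ± 0.30 in normoxia did not pass (adjusted p = 0.0549). Stc2, whose product inhibits a protease of binding proteins, rose by 1.77 ± 0.28 and 1.20 ± 0.25. Grb14 rose by 3.43 ± 0.44 in hypoxia, and in normoxia it differed by 1.08 ± 0.49 (not passing). In the difference of the hypoxia effects Htra1 (1.68 ± 0.30) and Igf2bp2 (-1.90 ± 0.40) passed, where 5.17% of all probes passed in either direction (39 upwards and 204 downwards), and at P30 0 of the 9 did. The authors' deposited P8 list also holds Igfbp4, a binding protein (1.73-fold lower, q = 0.1312), and Pik3ca (1.48-fold lower, q = 0.1939), for which no values per sample were used.

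Of 60 other imprinted genes listed, 7 had values per sample, of which 3 rose and 2 fell in hypoxia at P8. Their median was 1.05, against 0.18 over all probes and 0.65 over the named probes. Beside these counts stand 15.2% of all probes and 26.8% of the named probes that rose, and 5.57% of all probes that fell. The amino acid transporter gene Slc38a4 rose by 1.27 ± 0.34 (SE, limma adjusted p = 0.0337), Usp29, a neighbour of Peg3 in its imprinted domain, by 1.37 ± 0.34 (0.0220) and the potassium channel gene Kcnq1 by 1.31 ± 0.37 (0.0483). Signals of Usp29 were dim, at 2.21 to 5.41 at P8. Dcn, the matrix proteoglycan decorin, known as imprinted in the mouse placenta and also among the fibroblast markers above, fell by 1.82 ± 0.21 (5.65e-05) and Ppp1r9a by 1.14 ± 0.29 (0.0256). With age Slc38a4 fell by 3.04 ± 0.35 in normoxia and by 4.83 ± 0.32 in hypoxia, the 1 gene of the 7 to fall in normoxia. In hypoxia 5 fell, among them H13 (by 2.55 ± 0.35), and Dcn rose (1.79 ± 0.20). Over all probes 16.3% fell in normoxia, and 43.9% fell and 26.3% rose in hypoxia. In the difference of the hypoxia effects 1 of the 7 passed, Dcn (1.82 ± 0.30, SE, limma adjusted p = 0.00539), where 5.17% of all probes passed in either direction. At P30 0 of the 7 passed. The authors' deposited P8 list also holds 6 of the listed genes for which no values per sample were used. In the authors' deposited table Blcap was 2.07-fold and Cdkn1c, an imprinted inhibitor of cell division, 1.34-fold higher, while Commd1 (1.57-fold), Slc22a18 (1.52-fold), Nap1l5 (1.41-fold) and Tspan32 (1.37-fold) were lower, with q-values of 0.0837 to 0.2306.

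The genes most like the mean profile of the 6, each centred and scaled over the 18 samples, were Tnc, the matrix glycoprotein tenascin C (Pearson r = 0.98), the mitotic gene Ube2c (0.98), Emp1 (0.98), Snap91 (0.97) and the cell cycle kinases Cdk2 (0.97) and Plk1 (0.97). Those most opposite were Cmya5, a protein of the muscle cell's contractile apparatus (-0.98), the sarcomeric mitochondrial creatine kinase Ckmt2 (-0.98) and the lysosomal protein gene Tmem106b (-0.97). For single genes the closest were Fn1, fibronectin, for Igf2 (0.98), Tpm3 for Igf2r (0.96), Arhgef7 for Mest (0.96), Igfbpl1 for Peg3 (0.97), Dpysl3 for Plagl1 (0.98) and Cyth3 for Grb10 (0.98). All samples share the split by age and every probe of the table differs between group means, so high values are common: 190 of the 2562 other named probes had an r over 0.9 and 71 one under -0.9. The mean profile ran from 0.00 to 0.84 SD in normoxic P8 samples and from 0.90 to 1.58 in hypoxic P8 samples, and from -1.10 to -0.51 at P30.

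**Figure D5:**
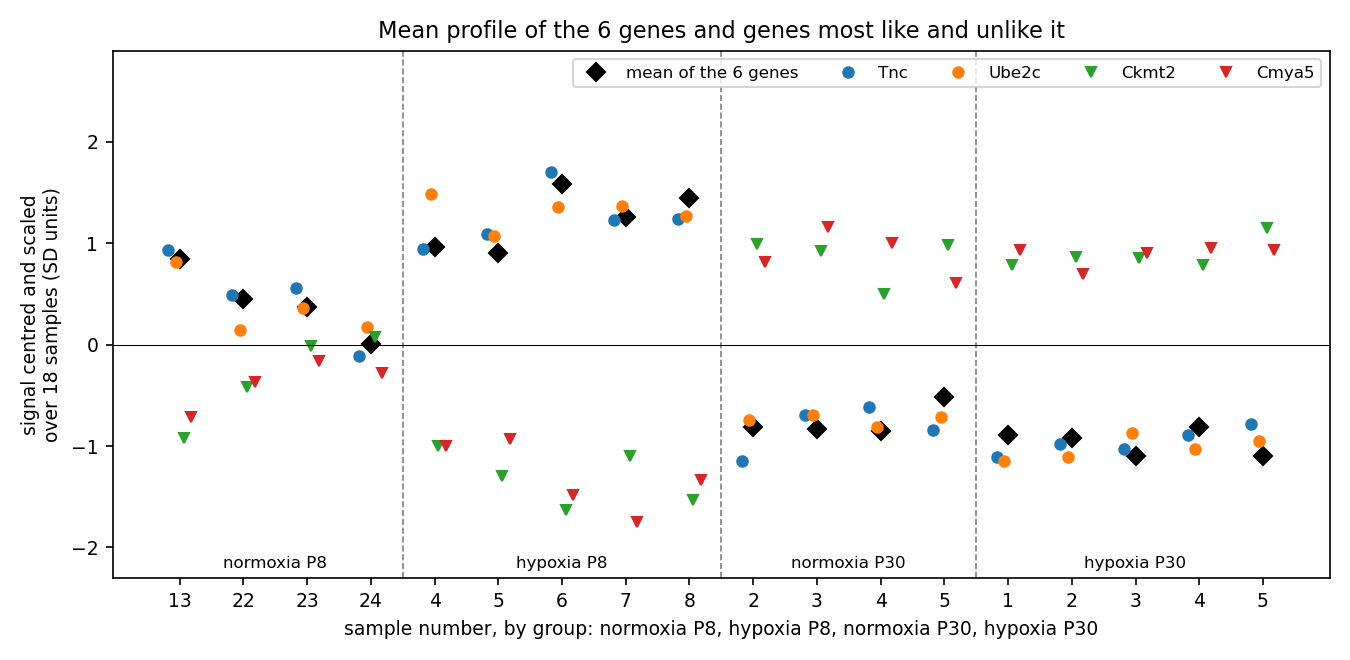
Mean profile of the 6 genes (diamonds) and of Tnc, Ube2c, Ckmt2 and Cmya5 in the 18 samples, each gene centred and scaled (SD units), in the order normoxia P8, hypoxia P8, normoxia P30, hypoxia P30. Tnc and Ube2c follow the 6 genes with r = 0.98, Ckmt2 and Cmya5 mirror them with r = -0.98, and normoxic P8 sample 13 lies next to the hypoxic P8 samples.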

How the data were processed

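Heart RNA of 18 samples was measured on Clariom S mouse arrays. The deposited value table holds log2 signals normalized by the authors, by a method that the sources used here do not state. Affymetrix Expression Console is the tool named by the submitters' processing notes, with no version. The authors' deposited gene lists give group averages as log2 signal, an SD as signal spread, a signed fold change (a score, below 0 for a fall), and p-values and q-values for hypoxia against normoxia at P8 and P30, per the file headers, by a test not given there; 3 p-values had become clock times and were restored.

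Probes took their name from a list that pairs them with 1 symbol (2568 probes), and 89 symbols were updated through RefSeq GRCm38.p6. In R 4.3.3, limma 3.58.1 (lmFit, contrasts.fit, eBayes) was fitted on all 4704 probes and 4 groups without a block (14 residual and 5.98 prior degrees of freedom), for 5 contrasts. Benjamini-Hochberg adjustment used 22199 tests (22186 to 22212 were possible), since the table holds part of the array. The script was tested on simulated data. Precision is limited by the number of arrays.

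The 6 genes and all lists were chosen with earlier results of these data known. Up to 6 genes of each pathway list were named, by the largest moderated statistic among those called in any comparison; likeness is Pearson's r over 18 samples. Alternatives were quantile normalization, centring, no dim probes (mean under the 25th percentile of 5.48), adjustment over the table alone, a trended robust prior, only the groups compared, a number block, each sample left out, and hypoxic P8 samples 4 and 5 left out. Enrichment tables were not used here.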

Additional observations from a re-analysis of the deposited data

Results flagged for a closer look

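In 2 of the 6 genes the effect of hypoxia differed between the ages by limma's test of the difference itself: Mest, with -4.09 (1.67 at P8 and -2.42 at P30), and Grb10, with -1.76 (1.77 at P8 and 0.00 at P30). Of all probes, 4.34% passed with this sign and 5.17% in either direction. The limma adjusted p was 0.0479 for Mest and 0.0340 for Grb10. Over 24 alternatives Mest kept its call in 7 and Grb10 in 11. Both lost it with quantile normalization and with centred arrays. Mest was named through its p at P30 and Grb10 through its p at P8, and the difference contains those contrasts, so neither is free of how the genes were named. Dixon's test over the 24 combinations of gene and group set no single sample apart.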

How the results depend on the processing

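Over 30 gene results, 671 of 756 values under alternatives kept direction and side of the threshold. Among these values are fits without a sample of a group not compared, where the difference itself cannot change. The total is therefore favoured by them. The number of the 6 genes called at P8 was 2 in place of 4 with quantile normalization, with centred arrays and with only the groups compared, and 2 to 5 over samples left out. For the difference of the hypoxia effects it was 2 as reported, 0 with quantile normalization or centred arrays, 1 without dim probes, 5 with adjustment over the table alone, 5 without hypoxic P8 samples 4 and 5, and 0 to 4 over samples left out. The cause was not tested. Of all 4704 probes, this difference was called in 243 as reported, 282 with quantile normalization, 570 with centred arrays and 176 without dim probes. It was called in 1191 with adjustment over the table alone, 478 without hypoxic P8 samples 4 and 5, and 142 to 376 over samples left out. The counts of the 6 genes are to be read beside these. Counts with age and at P30 stayed within 1.5 times under all alternatives run. Same-numbered P30 samples did not deviate together (correlations over all probes of -0.17 to 0.07), nor did both pairs of hypoxic P8 and P30 samples (-0.21 and 0.18), and both P8 groups share no number, so numbers were not treated as pairs. The replicate block left 0 genes called at P30 (samples 2 to 5) and 6 called with age in hypoxia (samples 4 and 5). Near 0 at P30, Plagl1 turned to 0.15 with quantile normalization and with centred arrays and to 0.045 with the replicate block, and Grb10 to -0.12 with the block. Over samples left out at P30 Plagl1 ran from -0.44 to 0.38, Peg3 from -0.31 to 0.22 and Grb10 from -0.12 to 0.11. Probes called over the table at P8 were 976, or 1938 adjusted over the table alone, 588 without dim probes and 429 with only the groups compared. They were 881 with quantile normalization, 1152 with centred arrays and 566 to 978 over samples left out. Dim signals limit Plagl1 and Peg3 at P30, and signals near the upper end of the scale limit Igf2 and Mest at P8.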
